A study of Mus musculus with 26 samples.

Results

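The comparison was between Sca-1 positive and Sca-1 negative cardiac stromal cells taken 7 days after coronary ligation, with 3 bulk RNA sequencing libraries of each gate, 6 of the 26 libraries of the series. Membership came from the labelled time point. The gate of 2 libraries, the pair PDGFRa, came from their titles, and that of the other 4, whose titles name no gate, from the names of their deposited files. Of the remaining 20 libraries, 9 were from undamaged hearts, 4 from day 14 and 7 from day 28, each again split by gate. All mice were of the strain C57BL/6 with the line written as B6.129S4-Pdgfratm11(EGFP)Sor/J and had the genotype PDGFRa H2BEGFP+, so that a nuclear green fluorescent protein reports the Pdgfra locus in every group, controls included. The cells were from dissociated hearts, negative for CD45 and CD31 and positive for the reporter, and the ligated vessel was the left anterior descending (LAD) coronary artery. Each gate therefore holds only cells in which the Pdgfra reporter was on, and other stromal cells were not sampled. The labels give no age, and they do not say whether a library came from 1 animal or from pooled animals, so every p below measures the spread between these libraries. Libraries of both gates that share the code 63, 66 or PDGFRa were treated as a pair, and 3 values in a row are always in that order.

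Pdgfra, a receptor of platelet-derived growth factors, marks the fibroblasts of the heart. SCA-1, a small surface protein anchored by a lipid and encoded by Ly6a, is used to enrich fibroblasts of the vessel adventitia and fascia, which share markers such as Pi16, Dpp4 and Cd248 and form colonies in culture. After infarction cardiac fibroblasts proliferate and then turn into matrix-producing, contractile myofibroblasts that build the scar, and later into matrifibrocytes that express genes of tendon and cartilage. The question was how the gates differ in the first week of scar formation, when activation is under way.

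The 6 libraries held between 10889736 and 19139687 counts assigned to genes and between 14041 and 15124 detected genes. Levels are in CPM, edgeR's unit of counts scaled to library size, after TMM scaling over all 26 libraries, and 3 counts in one library correspond to 0.157 to 0.275 CPM, which covers counting error only. Ly6a (ENSMUSG00000075602.10, GRCm38 chromosome 15, 74994877 to 74998031) was at 296, 333 and 298 CPM in the positive libraries and at 35.8, 31.6 and 31.2 CPM in the negative ones, so each file name matched the level of the sorted gene. Pdgfra was at 509, 532 and 500.3 against 341, 366 and 343 CPM, without overlap. Of the markers used to exclude cells, Ptprc (CD45) was between 0.376 and 2.04 CPM and Pecam1 (CD31) between 3.46 and 11.2 CPM. Xist, transcribed from the inactive X chromosome, was at 53.1 to 332 CPM in the pairs 66 and PDGFRa beside 50.2 to 70.9 CPM of the Y-linked Ddx3y, and at most 3.14 CPM in the pair 63. RNA of both sexes was therefore present in both gates of the pairs 66 and PDGFRa, while the pair 63 held little or no Xist. The Xist levels were not alike in the gates. They were 230 CPM in the positive and 332 CPM in the negative library of the pair 66, and 106 against 53.1 CPM in the pair PDGFRa. In bulk libraries fewer cells of a type and less RNA per cell cannot be told apart.

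At day 7, in the fit that treats each pair of libraries as a block, 21 of 32 adventitial progenitor genes, 9 of 20 complement genes and 12 of 56 interferon-induced genes were higher in the Sca-1 positive cells. In that fit 18 of 36 activation and matricellular genes, 12 of 35 collagen genes and 11 of 29 contractile genes were lower in them. All lists were chosen with earlier results of these data known. Without the block 0 of these interferon, matricellular, collagen and contractile genes were called, and the imprinted gene Mest, called either way, was lower in the positive cells. With edgeR's quasi-likelihood test over 12507 genes and Benjamini-Hochberg adjustment, 27 genes were higher in the positive gate (0.216% of those tested) and 13 lower (0.104%) at an adjusted p under 0.05, the threshold for a call throughout. With the pair as a block in the same test, 369 genes were higher (2.95%) and 490 lower (3.92%), and these included each of the 40 genes called without the block, in the same direction. Leaving out the PDGFRa pair reduced the blocked counts to 135 and 160, and leaving out the pair 66 to 261 and 326. Values after ± are standard errors, and differences are log2 of positive over negative. The genes with the largest differences are described from the fit without the block, and the members of gene lists from the fit with it unless stated. List medians and counts of members above or below 0 are from the fit without the block unless stated. Without regard to any test, the 3 positive libraries were all above the 3 negative ones for 963 genes (7.70%) and all below for 831 (6.64%). At an unadjusted p under 0.05, 1100 of the 12507 genes were higher and 1281 lower with the block, and 499 and 594 without it. Counts of list members at that p are to be read beside these.

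Among the 12 genes with the largest called differences in favour of the positive gate were surface, secreted and enzyme genes. Ly6a itself, the sorted gene, differed by 3.23 ± 0.16 log2 (adjusted p = 8.86e-06). Ly6c1, a neighbouring gene of the same family of lipid-anchored surface proteins, was at 67.4, 97.8 and 79.5 CPM in the positive and 7.63, 5.74 and 5.86 CPM in the negative libraries, a difference of 3.66 ± 0.20 log2 (adjusted p = 2.1e-05). Because Ly6 genes are alike in sequence, reads may be split between them in counts of this kind, and the counting rule was not given in the sources used here. Duox1, an oxidase that produces hydrogen peroxide, was at 13.6, 23.5 and 12.1 CPM against 1.26, 1.5 and 0.526 CPM (3.91 ± 0.42 log2, adjusted p = 0.00329). Its maturation factor Duoxa1 was also higher, at 2.97, 8.44 and 4.37 against 0.472, 1.41 and 0.677 CPM, a call only with the block (adjusted p = 0.000531, adjusted p = 0.115 without it). These adjacent genes can share reads where transcripts overlap. Both gates had some Duox1 RNA, but the lowest positive library was more than 8 times the highest negative one.

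Cell adhesion and scavenging receptors were in the same group. Cadm3, an adhesion molecule of the immunoglobulin family, was at 24.7, 48.1 and 21.3 CPM in the positive and 1.89, 3.95 and 0.977 CPM in the negative libraries (3.81 ± 0.54 log2, adjusted p = 0.0494). Ackr2, an atypical receptor that removes inflammatory CC chemokines, was at 18.6, 34.8 and 30.4 against 1.49, 5.08 and 2.63 CPM (3.20 ± 0.42, adjusted p = 0.0213). In both genes the 2 gates were far apart in each pair. Cmah, which makes a sialic acid that humans lack, varied most between pairs: its 3 positive libraries held 15.3, 33.2 and 9.64 CPM and its negative ones 1.42, 1.22 and 1.8 CPM (3.69 ± 0.49, adjusted p = 0.0196). Efhd1, a calcium-binding mitochondrial protein (2.67 ± 0.23, adjusted p = 0.000796), and the secreted glycoproteins Myoc (2.10 ± 0.22, adjusted p = 0.00329) and Papln (2.24 ± 0.25, adjusted p = 0.00376) completed a set with no overlap between gates. The remaining 3 of the 12 were Cfb, described with complement below, Hp, the haemoglobin-binding haptoglobin (172, 70.7 and 119 against 29.1, 34.3 and 35 CPM, adjusted p = 0.047), and Prg4, the lubricant proteoglycan of joints and tendon sheaths (346, 219 and 366 against 78.3, 84 and 128 CPM, adjusted p = 0.0235).

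**Figure D1:**
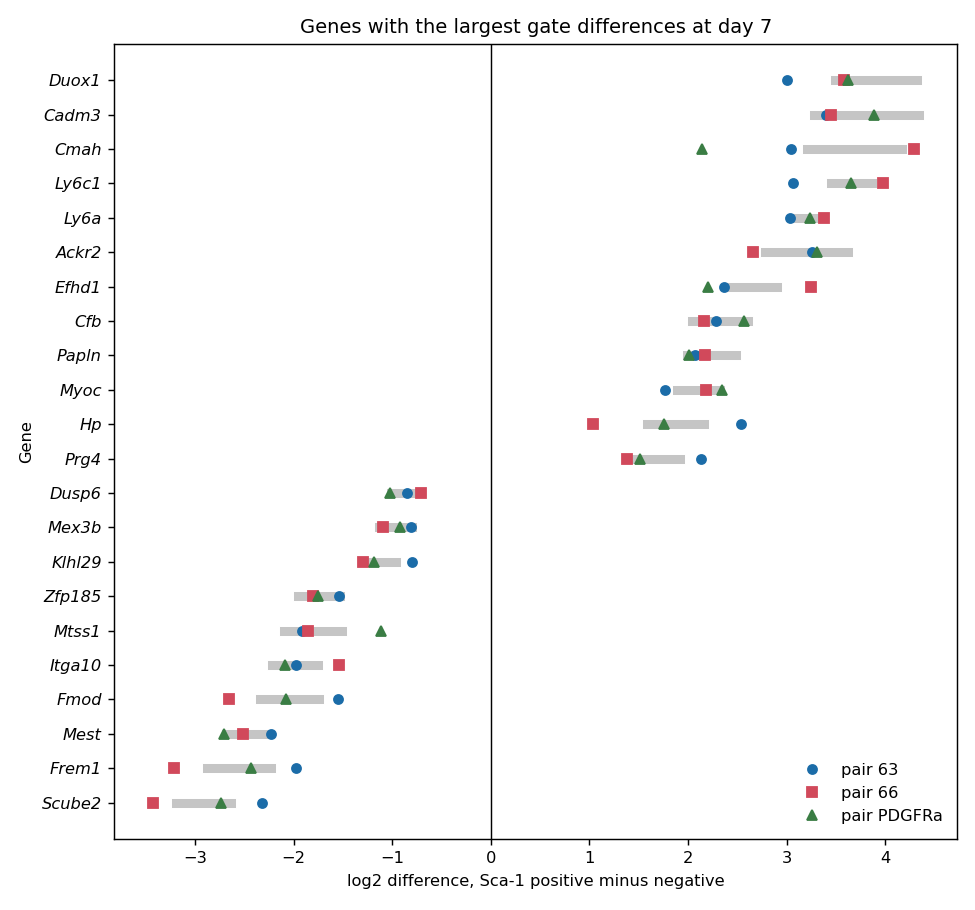
Log2 difference between the Sca-1 positive and negative library of each pair (circle 63, square 66, triangle PDGFRa, computed after adding 0.5 CPM) for the 22 genes with the largest called differences at day 7. Grey bars span 1 standard error on each side of the fitted difference. All 3 points lie on the same side of 0 for each gene, and the pair values of Cmah spread the widest among the higher genes.

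In the opposite direction 10 genes met the naming rule. Mest (GRCm38 chromosome 6, 30723547 to 30748465), an imprinted gene expressed from the paternal copy and abundant in embryonic mesoderm, was at 114, 105 and 99.99 CPM in the negative libraries and at 23.9, 17.9 and 14.8 CPM in the positive ones. The difference was -2.50 ± 0.19 log2 (adjusted p = 0.000298), with the smallest p among genes lower in the positive gate without the block. Scube2, a secreted protein that helps release hedgehog ligands, was at 30.0, 36.7 and 44.1 CPM in the negative and 5.6, 2.95 and 6.17 CPM in the positive libraries (-2.91 ± 0.28, adjusted p = 0.00166). Several of the others bind or organise matrix. Frem1, a basement membrane protein, differed by -2.56 ± 0.32 (adjusted p = 0.0124), the collagen-binding integrin subunit Itga10 by -1.99 ± 0.23 (adjusted p = 0.0054), and Fmod, a small proteoglycan that shapes collagen fibrils, by -2.05 ± 0.30 (adjusted p = 0.0261). The libraries of Fmod held 693, 732 and 1041 CPM in the negative and 237, 116 and 247 CPM in the positive gate. The actin-associated genes Zfp185 (-1.74 ± 0.21, adjusted p = 0.0074) and Mtss1 (-1.80 ± 0.29, adjusted p = 0.034) were lower as well. So were Dusp6, a phosphatase that turns off ERK kinases (109, 117 and 131 CPM in the negative against 59.8, 71.3 and 64.3 CPM in the positive gate, adjusted p = 0.0342), the ubiquitin ligase adaptor Klhl29 (-1.12, adjusted p = 0.0171) and the RNA-binding protein gene Mex3b (-0.97, adjusted p = 0.047).

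Adventitial progenitor genes formed the list with the highest share of members higher in the positive gate. Its members were chosen with earlier results of these data known, so the share is not independent evidence. Of 32 members tested, 21 were higher and 0 lower with the block, 6 and 0 without it. Ly6c1, whose reads may be shared with Ly6a, was among those higher in both fits. At an unadjusted p under 0.05 with the block, 25 were higher and 1 lower, and DESeq2 with the block called 20 and 0. The median over the list was 0.88 log2, beside -0.0020 over all genes. Leaving out any pair gave 18 to 19 members higher with the block. Pi16, a secreted peptidase inhibitor that marks these cells across tissues, was at 1311, 1745 and 1817 CPM in the positive and 429.9, 712 and 784 CPM in the negative libraries (1.37 ± 0.13, adjusted p = 3.68e-06 with the block, 0.0615 without). Dpp4, a cell-surface peptidase, was at 31.6, 48.5 and 15.7 against 7.86, 6.77 and 2.18 CPM. Its level differed between pairs while each pair had the higher level in the positive gate, and the call was made only with the block (adjusted p = 0.227 without it, 5.85e-07 with it).

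The same held for other members. Sema3c, a secreted semaphorin, was at 125, 187 and 123 CPM against 20.2, 48.9 and 30.7 CPM (adjusted p = 6.14e-08 with the block, 0.0617 without). Ackr3, the atypical receptor that scavenges CXCL12, was at 268, 576 and 272 against 65.6, 114 and 59.3 CPM (adjusted p = 6.76e-09 with the block, 0.115 without). Its ligand gene Cxcl12 was also higher, but by much less, at 300.4, 329 and 289.8 against 264, 244 and 192 CPM (0.40 ± 0.11 log2, adjusted p = 0.0484 with the block). Cd248, or endosialin, (1.24 ± 0.17, adjusted p = 0.013) and the complement-protecting surface protein Cd55 (1.38 ± 0.19, adjusted p = 0.0171) were called without the block. The stem cell and endothelial marker Cd34 was at 1418, 1549.5 and 1565 against 698, 793 and 893 CPM (adjusted p = 0.000118 with the block, 0.0633 without). Some members did not follow, as 3 of the 32 tested had a fitted difference below 0 without the block and 1 was lower in all 3 pairs. Mfap5, a microfibril protein, was at 1237, 1222 and 1411 CPM in the positive and 1405, 985 and 1559 CPM in the negative libraries (-0.04 ± 0.20, adjusted p = 0.983 without the block and 0.975 with it), with the gates overlapping. Hic1, a transcriptional repressor of quiescent mesenchymal progenitors, also overlapped, at 60.4, 79.4 and 54.5 against 75.2, 109 and 37.9 CPM (-0.20 ± 0.37, adjusted p = 0.939 without the block and 0.787 with it).

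**Figure D2:**
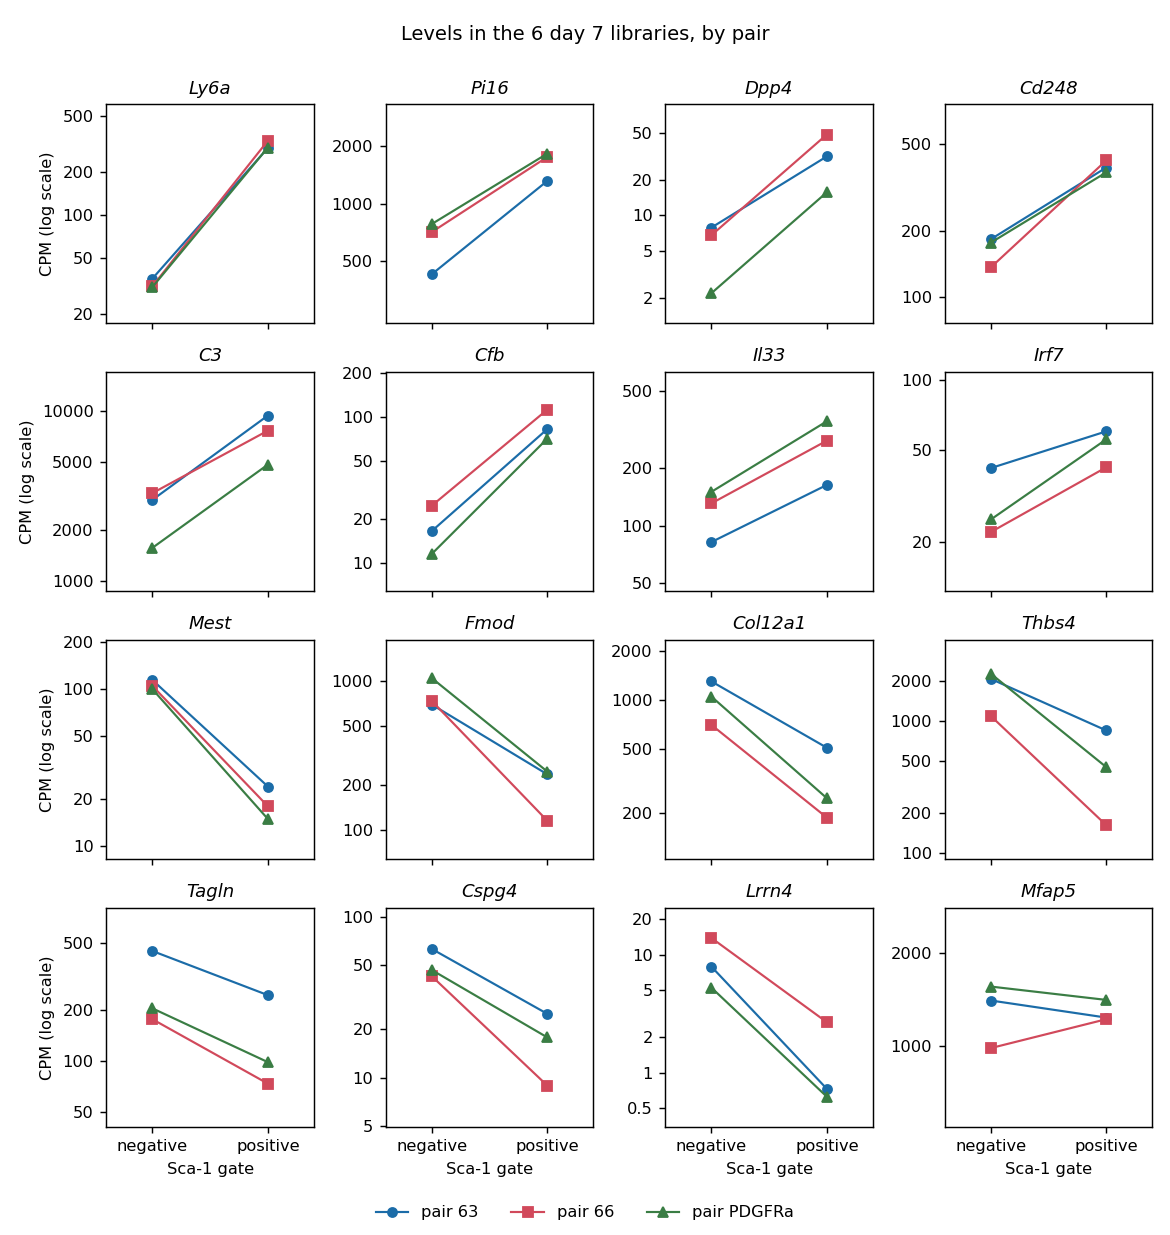
Level of 16 genes in each of the 6 day 7 libraries, in CPM on a log axis, with the negative library on the left and the positive library on the right and 1 line for each pair. Lines rise in all pairs from Ly6a to Irf7, fall in all pairs from Mest to Lrrn4, and differ in direction between pairs for Mfap5.

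Complement genes were higher in the positive gate in part. With the block, 9 of 20 members tested were higher and 1 lower (2 and 0 without it), and the list's median was 0.44 log2. C3, the central component that all complement pathways cleave, was at 9418, 7673 and 4839 CPM in the positive and 3001, 3287 and 1564 CPM in the negative libraries. Its difference of 1.49 ± 0.14 log2 was called with the block (adjusted p = 5.31e-06) and not without it (adjusted p = 0.134). Cfb, the protease of the alternative pathway that works with C3, was at 82.6, 112 and 71 against 16.6, 24.7 and 11.6 CPM (2.33 ± 0.29, adjusted p = 0.0155 without the block). C4b, of the classical and lectin pathways, was at 556, 694 and 441 against 280.4, 367 and 228 CPM (adjusted p = 3.81e-05 with the block, 0.147 without). Clu was the member lower with the block (-1.12 ± 0.19, adjusted p = 0.00496).

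Of 43 chemokine, cytokine and receptor genes tested, 13 were higher and 3 lower with the block, 1 and 0 without it. The 3 lower were the cytokines Il34 (-0.90 ± 0.23, adjusted p = 0.0227) and Lif (-0.49 ± 0.13, adjusted p = 0.0377) and the membrane-bound chemokine Cx3cl1 (-0.59 ± 0.13, adjusted p = 0.00686). The difference of Lif without the block was -0.50 log2 (adjusted p = 0.92) and 0.25 without the negative library of the pair 66. The blocked counts fell to 5 and 0 without the PDGFRa pair and to 8 and 0 without the pair 66. Besides Ackr2 and Ackr3, another atypical receptor, Ackr1, was at 2.07, 2.81 and 2.43 CPM in the positive libraries and 0.393, 0 and 0 CPM in the negative ones, where 2 libraries held no read. That call needed the block (adjusted p = 0.00456, adjusted p = 0.123 without it). Il33, an alarmin stored in nuclei and released on injury, was at 163, 277 and 349 against 82.2, 131 and 150.0 CPM (adjusted p = 8.55e-06 with the block, 0.247 without). Lcn2, an iron-sequestering acute phase protein, was at 7.17, 7.24 and 9.78 against 3.93, 2.92 and 3.98 CPM (adjusted p = 0.012 with the block, 0.17 without). The monocyte chemokine Ccl2 and the cytokine Il6 did not separate the gates. Ccl2 was at 33.7, 146 and 40.8 against 52, 112 and 27.4 CPM (adjusted p = 0.83) and Il6 at 58.5, 368 and 165 against 62.6, 267 and 113 CPM (adjusted p = 0.195). In both, the pair 66 stood above the other pairs in either gate.

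Of 56 interferon-induced genes tested, 53 had a fitted difference above 0 beside 6214 of 12507 over all genes, with a median of 0.35 log2, and 12 were called higher and 0 lower with the block. Without the block 0 were called in either direction (12 higher and 0 lower at an unadjusted p under 0.05), and DESeq2 with the block called 11 and 0. The blocked count was 0 without the PDGFRa pair and 6 without the pair 66. The list's median was 0.34 and 0.33 log2 in those fits, beside 0.39 with the block and all pairs. Gbp2, a guanylate-binding protein induced by interferon, was at 76.9, 80.4 and 73.4 CPM in the positive and 57.5, 57.2 and 49.3 CPM in the negative libraries (0.49 ± 0.11, adjusted p = 0.0128 with the block). Irgm2, an immunity-related GTPase, was at 48.5, 38.7 and 50.9 against 28.3, 26.6 and 35.1 CPM (adjusted p = 0.00668), and Gbp9 at 14.1, 13.9 and 9.43 against 8.41, 5.92 and 5.86 CPM (adjusted p = 0.0153). Gbp4 was low throughout, at 1.62, 2.01 and 1.46 against 0.314, 0.376 and 0 CPM. Irf7, the transcription factor that amplifies type I interferon, was at 60.2, 42.1 and 55.5 against 41.7, 22.1 and 25 CPM (adjusted p = 0.00102). Genes of antigen presentation, which interferon also induces, included H2-D1 (0.62 ± 0.11, adjusted p = 0.00266), H2-K1 (0.56 ± 0.11, adjusted p = 0.00492) and B2m (0.42 ± 0.12, adjusted p = 0.0493), the 3 of 19 members called higher with the block. With edgeR and the block 0 of the 19 were lower, as at an unadjusted p under 0.05 and with DESeq2 with the block. Without the PDGFRa pair 0 were called in either direction. Genes of the Gbp and H2 families are alike in sequence, so reads may be split between their members.

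Because 12 of these genes were called in the same direction, their promoters were searched for the core of the interferon-stimulated response element, GAAANNGAAA on either strand, in the 250 bases before the start site. The motif was chosen after the values were seen. Of the 12 genes called higher, 7 had an entry in the RefSeq promoter table (GRCm38.p6), and 6 of those held the motif, as did 13 of 32 list members tested and not called and 3.46% of all 27025 genes of the table. A match is a description of these letters and not evidence of binding. The 120 bases around the motif in those 6 promoters are shown 5′ to 3′ on the strand of the gene, with the motif in capitals (TTTCNNTTTC where it lies on the opposite strand).
Gbp2 (chr3:142620543-142620662, plus strand): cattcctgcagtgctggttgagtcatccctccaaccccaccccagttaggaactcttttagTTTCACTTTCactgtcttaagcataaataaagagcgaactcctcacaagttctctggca
Gbp3 (chr3:142559924-142560043, plus strand): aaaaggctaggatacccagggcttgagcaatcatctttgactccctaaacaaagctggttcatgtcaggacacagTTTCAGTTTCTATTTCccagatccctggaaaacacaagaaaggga
Ifit3 (chr19:34583335-34583454, plus strand): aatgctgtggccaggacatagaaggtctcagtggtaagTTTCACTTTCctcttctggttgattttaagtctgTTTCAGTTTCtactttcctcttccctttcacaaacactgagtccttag
Irgm2 (chr11:58214857-58214976, plus strand): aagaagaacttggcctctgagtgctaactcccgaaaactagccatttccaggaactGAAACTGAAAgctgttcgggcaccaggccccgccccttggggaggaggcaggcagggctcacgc
Oas1a (chr5:120907526-120907645, minus strand): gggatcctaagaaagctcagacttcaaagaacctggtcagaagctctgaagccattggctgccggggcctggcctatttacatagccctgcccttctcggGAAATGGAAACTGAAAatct
Trim30a (chr7:104465194-104465313, minus strand): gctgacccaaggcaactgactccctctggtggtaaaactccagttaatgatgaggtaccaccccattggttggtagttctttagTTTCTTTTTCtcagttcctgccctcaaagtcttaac
The motif began 20 to 64 bases before the start in 5 of the 6 genes and 156 bases before it in Ifit3. Gbp3, Ifit3 and Oas1a hold the motif 2 times in these windows, with the copies overlapping in Gbp3 and Oas1a. Gbp3 was at 57.3, 29.7 and 30.4 CPM in the positive and 26.5, 24 and 18.2 CPM in the negative libraries, and Trim30a at 45.6, 33.8 and 36.4 against 33.9, 21.5 and 24.7 CPM. For Ifit3 (62.4, 25.7 and 33.1 against 45, 16.6 and 19.2 CPM) and Oas1a (8.07, 4.15 and 4.79 against 5.42, 1.13 and 1.95 CPM) the pair 63 was the highest in both gates, and the gates overlapped while each pair differed in the same direction.

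Of 36 genes of fibroblast activation and matricellular proteins, which signal between matrix and cells during repair, 18 were lower and 0 higher with the block, and 0 in either direction without it (11 lower and 0 higher at an unadjusted p under 0.05). DESeq2 with the block called 19 lower and 0 higher, and the list's median was -0.57 log2. Without the PDGFRa pair the blocked counts were 8 lower and 1 higher. Thbs1, a thrombospondin that activates latent TGF-beta, was at 4367, 4275 and 3277 CPM in the negative and 2339, 2655 and 1358 CPM in the positive libraries (adjusted p = 0.000402 with the block, 0.231 without). The adhesion gene Cdh11 was at 119, 139 and 160.2 against 84.3, 97 and 103 CPM (adjusted p = 0.00335 with the block), and the heparin-binding growth factors Ptn (-0.95 ± 0.20, adjusted p = 0.0163) and Mdk (-0.97 ± 0.12, adjusted p = 5.31e-05) were lower by about the same amount. For the next 3 genes the gates overlapped. Cthrc1, a marker of activated cardiac fibroblasts, was at 792, 358 and 721 CPM in the negative and 538, 213 and 406 CPM in the positive libraries (-0.72 ± 0.11, adjusted p = 0.000777 with the block). Tnc was at 1422, 1125 and 945 against 1099.7, 476 and 591 CPM (adjusted p = 0.00425) and fibronectin, Fn1, at 18552, 10250.4 and 17179 against 13709.6, 5148 and 8567 CPM (adjusted p = 0.00332). Each was lower in the positive library of every pair. Spp1, or osteopontin, a matricellular protein of early repair, was lower too (-1.45 ± 0.16, adjusted p = 3.02e-05), as was the transcription factor Runx1 (-0.63 ± 0.11, adjusted p = 0.00118). Postn, or periostin, the most used marker of the activated state, was at 15104, 9708 and 12947 CPM in the negative and 15218, 6208 and 10152 CPM in the positive libraries and was not called (adjusted p = 0.255 with the block, 0.903 without).

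With the block 12 of 35 collagen genes were lower and 1 higher, and 0 in either direction without it (12 lower and 1 higher at an unadjusted p under 0.05), with a median of -0.44 log2. Col4a3, of basement membranes, was the member higher (0.50 ± 0.12, adjusted p = 0.0135). The blocked count of lower members was 6 without the PDGFRa pair, 8 without the pair 66 and 17 with DESeq2. Col12a1, a fibril-associated collagen of tendon and injured tissue, was at 1304, 702 and 1051 CPM in the negative and 508, 188 and 248 CPM in the positive libraries (-1.79 ± 0.14, adjusted p = 5.85e-07 with the block, 0.196 without). Col7a1, of anchoring fibrils, was at 38.7, 20.4 and 27.8 against 11.6, 5.36 and 8.32 CPM (adjusted p = 2.81e-06 with the block). The gates did not overlap for Col8a2 (212, 328 and 284 against 165, 79.8 and 139 CPM) or Col16a1 (656, 989.9 and 826 against 548, 333 and 588 CPM) either, but these passed the threshold in neither fit (adjusted p = 0.195 and 0.1 with the block). The main fibrillar collagens were not called. Col1a1 was at 40256, 32489 and 33954 CPM in the negative and 30631, 21095 and 27044 CPM in the positive libraries (adjusted p = 0.0992 with the block), and Col3a1 at 35017, 37531 and 43196 against 46514, 33248 and 43991 CPM (adjusted p = 0.854). Among collagen-processing genes 3 of 30 were higher and 4 lower with the block. Pcolce2, an enhancer of procollagen cleavage, (0.82 ± 0.11, adjusted p = 0.000142), the collagen galactosyltransferase Colgalt2 (0.68 ± 0.12, adjusted p = 0.00181) and the crosslinking oxidase Loxl4 (0.68 ± 0.18, adjusted p = 0.0265) were higher, and the lysyl hydroxylase Plod2 (-0.57 ± 0.11, adjusted p = 0.00359), the prolyl hydroxylase P3h2 (-0.96 ± 0.21, adjusted p = 0.0168) and the lysyl oxidases Lox (-0.52 ± 0.13, adjusted p = 0.0203) and Loxl3 (-0.64 ± 0.12, adjusted p = 0.00298) were lower. Without the PDGFRa pair the lower count was 0.

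Matrix genes of the mature scar were split. Of 25 matrifibrocyte genes tested, 4 were higher and 8 lower with the block (1 and 2 without it, with a median of -0.55 log2), and 2 and 4 with the block without the PDGFRa pair. Prg4, given above, and Alpl, an alkaline phosphatase of mineralising tissue (29.2, 36.2 and 45.3 against 19.97, 18.1 and 16.6 CPM, adjusted p = 0.00121 with the block), Clec3b, or tetranectin (1.41 ± 0.15, adjusted p = 1.93e-05), and the matrilin Matn2 (0.54 ± 0.12, adjusted p = 0.00828) were higher in the positive gate. Fmod and the tendon gene Tnmd (5.11, 6.96 and 8.27 CPM in the negative against 1.96, 1.14 and 1.04 CPM in the positive libraries, adjusted p = 0.0461 without the block) were lower. Thbs4, a thrombospondin of tendon and stretched muscle, was at 2077, 1086 and 2272 CPM in the negative and 845, 162 and 446 CPM in the positive libraries (-2.14 ± 0.26, adjusted p = 0.00186 with the block, 0.453 without). Cilp, a cartilage protein abundant in injured heart, was at 3534, 3384 and 3927 against 2597, 1413 and 2195 CPM (adjusted p = 0.00199 with the block). The cartilage protein Comp was lower in the positive library of each pair, at 937, 488 and 1723 against 773, 221 and 1159 CPM (adjusted p = 0.0108 with the block, 0.918 without), although the pairs spanned a wider range than the gates. Of 14 small leucine-rich proteoglycans, 1 was higher (Podn, 0.56 ± 0.12, adjusted p = 0.00787) and 2 lower with the block, Fmod and Chad (-1.83 ± 0.37, adjusted p = 0.00686). The elastic fibre genes followed no single direction. Of 25 tested, 3 were higher, Emilin2 (112, 168 and 77.5 against 36.5, 51.5 and 16.1 CPM, adjusted p = 2.31e-07), Efemp1 (1.79 ± 0.20, adjusted p = 0.000299) and Fbln1 (0.74 ± 0.14, adjusted p = 0.00329). The 5 lower were Lox, Fbn2, a fibrillin of development and repair (-0.90 ± 0.14, adjusted p = 0.000678), Emilin3 (-2.77 ± 0.75, adjusted p = 0.0392), Fbln5 (-0.55 ± 0.12, adjusted p = 0.0102) and Ltbp2 (-0.98 ± 0.16, adjusted p = 0.00118). The lower count was 1 without the PDGFRa pair. Of 48 matrix proteases and inhibitors, 5 were higher and 4 lower with the block (3 and 1 without the PDGFRa pair). Dpp4, Mmp19 (0.42 ± 0.11, adjusted p = 0.0258) and the aggrecanases Adamts5 (0.68 ± 0.11, adjusted p = 0.00104) and Adamts15 (0.73 ± 0.11, adjusted p = 0.000677) were higher, and Adamts9 (-0.82 ± 0.17, adjusted p = 0.00575) and Adamts16 (-1.31 ± 0.31, adjusted p = 0.0329) lower. Mmp3, a stromelysin that degrades proteoglycans, was at 101, 176 and 197 against 54.6, 78.4 and 88.5 CPM in the positive and negative libraries (adjusted p = 1.48e-05), while Adamts7, which cleaves COMP, was at 25, 20.2 and 28.3 CPM in the positive and 35.1, 39 and 35 CPM in the negative libraries (adjusted p = 0.0243).

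With the block 11 of 29 contractile and cytoskeletal genes of myofibroblasts were lower in the positive gate and 0 higher, and 0 were called in either direction without it (7 lower and 0 higher at an unadjusted p under 0.05). DESeq2 with the block called 12 lower and 0 higher, and the blocked count was 5 without the PDGFRa pair and 7 without the pair 66. The list's median was -0.32 log2. Acta2, smooth muscle actin, was at 455, 149 and 201 CPM in the negative and 266, 101 and 137 CPM in the positive libraries (-0.64 ± 0.11, adjusted p = 0.00129 with the block, 0.837 without). Tagln was at 446, 176 and 204 against 244, 73.2 and 98.1 CPM (-1.07 ± 0.11, adjusted p = 1.66e-05 with the block). In these genes the pair 63 was the highest in both gates, and its positive library exceeded the negative libraries of the other pairs, so that the gates overlapped although each pair differed in the same direction. Palld, an actin-bundling protein (497, 382 and 363 against 283, 215 and 149.9 CPM, adjusted p = 6.44e-05), the intermediate filament gene Des (-0.76 ± 0.18, adjusted p = 0.0147), the kinase Mylk (-0.64 ± 0.16, adjusted p = 0.0241) and Smtn (-0.58 ± 0.11, adjusted p = 0.00248) did not overlap between gates. Markers of mural cells, which wrap blood vessels, summed to 883 to 958 CPM in the positive and 1094 to 1258 CPM in the negative libraries. Pdgfrb was the most abundant of them, and how much of the sums came from mural cells was not tested. The part of mural cells in these differences was not tested either.

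Serum response factor drives many contractile genes through the CArG box. The 250 bases before the start of these genes were searched for its strict form, CCWWWWWWGG with W for A or T. Both strands were searched, again after the values were seen. Boxes that depart from this form were not counted, so a gene without a match may still hold one. Of the 11 contractile genes called lower, 10 had a RefSeq promoter (GRCm38.p6) and 3 held a box of this form. So did 2 of 15 members tested and not called and 1.62% of all genes of the table. The 3 promoters are shown over 120 bases 5′ to 3′ on the gene's strand, with the box in capitals, because these genes were called lower in the positive gate.
Cnn2 (chr10:79988480-79988599, plus strand): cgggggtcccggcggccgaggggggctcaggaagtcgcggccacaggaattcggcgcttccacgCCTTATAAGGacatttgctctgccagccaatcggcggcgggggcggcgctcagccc
Myl9 (chr2:156775248-156775367, plus strand): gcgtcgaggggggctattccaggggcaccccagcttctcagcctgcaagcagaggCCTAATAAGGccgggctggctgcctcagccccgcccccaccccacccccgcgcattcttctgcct
Vcl (chr14:20929148-20929267, plus strand): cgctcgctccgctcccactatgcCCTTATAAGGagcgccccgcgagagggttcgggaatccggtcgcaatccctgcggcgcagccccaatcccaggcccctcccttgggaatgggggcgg
Vcl, the adhesion protein vinculin, was at 350.1, 282 and 302 CPM in the negative and 282, 212 and 211 CPM in the positive libraries (-0.42 ± 0.11, adjusted p = 0.0253 with the block). Cnn2, a calponin, was at 196, 154 and 102 against 138, 85.5 and 77.9 CPM (adjusted p = 0.00439), and the myosin light chain gene Myl9 at 59.2, 38.5 and 41.3 against 45.9, 23.8 and 27 CPM (adjusted p = 0.0129). Immediate early genes, which cell dissociation also induces, were lower in 7 of 37 members and higher in 0 with the block (0 in either direction without it, where 2 were lower and 0 higher at an unadjusted p under 0.05). DESeq2 with the block called 8 lower and 0 higher, and the blocked count was 1 without the PDGFRa pair and 3 without the pair 66. Egr2 was at 187, 328 and 293 CPM in the negative and 149, 209 and 187 CPM in the positive libraries (adjusted p = 0.00509 with the block), Dusp5 at 7.47, 11.7 and 8.04 against 3.3, 8.58 and 3.19 CPM (adjusted p = 0.0287), and Nr4a2 at 38.4, 166 and 78.6 against 32.8, 71 and 41 CPM (adjusted p = 0.00451). Egr4 was under 2 CPM except in the negative library of the pair 66, which held 8.84 CPM.

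Signalling genes were split between the gates. Of 48 growth factors and receptors, 6 were higher and 10 lower with the block, 3 and 4 without the PDGFRa pair. Pdgfra was among the higher ones (0.55 ± 0.11, adjusted p = 0.00452, and 0.2 without the block). Hbegf, a ligand of the EGF receptor family, was at 35.8, 70.4 and 43.8 CPM in the negative and 27.6, 24.3 and 18.9 CPM in the positive libraries (adjusted p = 0.00234). The fibroblast growth factor genes Fgf7 (0.69 ± 0.19, adjusted p = 0.0329) and Fgf18 (0.70 ± 0.14, adjusted p = 0.00402) were higher in the positive gate. Igf2, an imprinted growth factor gene (-1.18 ± 0.20, adjusted p = 0.00324), and Met, the receptor of hepatocyte growth factor (-2.71 ± 0.51, adjusted p = 0.00298), were lower. Of 47 TGF-beta and BMP pathway genes, 5 were higher and 5 lower with the block, 1 and 1 without the PDGFRa pair and 3 and 3 without the pair 66. The ligand genes Tgfb3 (-0.47 ± 0.12, adjusted p = 0.031) and Bmp4 (-0.46 ± 0.11, adjusted p = 0.0203) were lower, with Ltbp2 given above. Tgfb1 was lower, at 155, 161 and 149 CPM in the negative against 91.5, 100.2 and 110.1 CPM in the positive libraries (-0.63 ± 0.11, adjusted p = 0.00173), and the co-receptor Tgfbr3 was higher (308, 363 and 313 against 229, 222 and 225 CPM, adjusted p = 0.00607). Gdf10, a ligand of the same family, (14.8, 28.6 and 14.1 against 4.87, 9.31 and 3.61 CPM, adjusted p = 2.4e-05) and the activin subunit gene Inhbb (0.77 ± 0.14, adjusted p = 0.00192) were higher as well, with the receptor Tgfbr2 (0.51 ± 0.12, adjusted p = 0.0115) and the BMP-binding protein gene Bmper (0.57 ± 0.12, adjusted p = 0.00673). Of 42 Wnt pathway genes, 2 were higher and 5 lower with the block, and the lower count was 1 without the PDGFRa pair, 9 without the pair 63 and 3 without the pair 66. The other ligand called was Wnt9a (0.54 ± 0.13, adjusted p = 0.0145). The ligand Wnt10b, which restrains fat cell formation, was at 5.77, 10.5 and 5.2 against 0.708, 2.16 and 1.05 CPM (adjusted p = 0.000186), while the receptors Fzd5 (-0.79 ± 0.17, adjusted p = 0.00671), Fzd6 (-1.04 ± 0.24, adjusted p = 0.0141) and Fzd8 (-0.66 ± 0.15, adjusted p = 0.0103) and the pathway modulators Dkk3 (-0.64 ± 0.11, adjusted p = 0.00175) and Nkd2 (-0.50 ± 0.12, adjusted p = 0.0182) were lower. Wif1, a secreted Wnt inhibitor, did not pass the filter on low counts at day 7.

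Of 27 transcription factors of cardiac stroma, 2 were higher and 5 lower with the block, the latter 1 without the PDGFRa pair and 2 without the pair 66. Meox2 (25.6, 24.5 and 20.8 against 14, 14 and 11.1 CPM, adjusted p = 0.0024) and the fibroblast factor Tcf21 (128, 142 and 159.6 against 87.3, 91.2 and 117 CPM, adjusted p = 0.00449) were higher. Meox1, which its paralog Meox2 resembles in sequence, went the other way, at 217, 209 and 188 CPM in the positive and 260.0, 341 and 286 CPM in the negative libraries (adjusted p = 0.00898). The Notch target genes Heyl (-0.73 ± 0.11, adjusted p = 0.000643) and Hey1 (-0.92 ± 0.23, adjusted p = 0.0221) were lower, and so were Gata6 (-0.41 ± 0.11, adjusted p = 0.0289) and Gata5 (-2.08 ± 0.54, adjusted p = 0.026), which was under 3 CPM in each library. Of 25 lipid handling genes, 3 were higher and 0 lower with the block (5 and 1 at an unadjusted p under 0.05, 3 and 0 with DESeq2 with the block). They were the desaturase Scd1 (263, 279 and 221 against 164, 156 and 137 CPM, adjusted p = 0.000402), the lipoprotein receptor Vldlr (0.58 ± 0.13, adjusted p = 0.00933) and the lipid carrier Apod (0.93 ± 0.14, adjusted p = 0.00035). Of 42 proliferation genes 1 was higher (Ccnd1, 0.58 ± 0.12, adjusted p = 0.0068) and 1 lower (Ccnd2, -0.43 ± 0.11, adjusted p = 0.0291) with the block, both D-type cyclins. At an unadjusted p under 0.05 with the block the counts were 1 and 7, beside 1100 and 1281 of 12507 genes. The fitted differences of the proliferation genes without the block were below 0 for 30 of the 42, with a median of -0.20 log2, and 17 were lower and 4 higher in all 3 pairs, beside 2461 and 2670 of 12507 genes. Glycolysis genes had 1 of 22 higher (Pfkp, 0.40 ± 0.11, adjusted p = 0.0406) and 0 lower (3 and 2 at an unadjusted p under 0.05, 0 and 0 with DESeq2 with the block). Cdc20 and Cenpf, of mitosis, were at 3.82 to 6.1 and 2.95 to 6.44 CPM in the positive and at 6.58 to 10.4 and 5.71 to 7.94 CPM in the negative libraries, and neither was called (adjusted p = 0.0934 and 0.182 with the block).

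Markers of other cell types were examined beside these lists. Mural markers had 7 of 18 members lower and 1 higher in the positive gate with the block, 0 in either direction without it (7 lower and 1 higher at an unadjusted p under 0.05), and 4 lower and 1 higher without the PDGFRa pair. Steap4 was the member higher (1.12 ± 0.12, adjusted p = 1.34e-05). Notch3, the receptor that maintains mural cells, was at 97.4, 108 and 105 CPM in the negative and 60.5, 43.5 and 65.5 CPM in the positive libraries (-0.89 ± 0.13, adjusted p = 0.000413 with the block, 0.0702 without). Cspg4, or NG2, was at 62.8, 42.5 and 46.5 against 24.9, 8.91 and 17.8 CPM (adjusted p = 1.86e-05), with Itga7 (-1.30 ± 0.21, adjusted p = 0.000981) and Mcam (-1.13 ± 0.18, adjusted p = 0.000849) lower too. Epicardial and mesothelial markers had 12 of 23 members lower and 2 higher with the block (1 and 0 without it), and 6 and 2 without the PDGFRa pair. The 2 higher were C3 and Aldh1a2, the enzyme of retinoic acid synthesis (1.01 ± 0.14, adjusted p = 0.000272). Upk1b was at 10.8, 6.58 and 14.9 CPM in the negative and 0.84, 1.81 and 2.43 CPM in the positive libraries (adjusted p = 0.034 without the block), Lrrn4 at 7.94, 13.9 and 5.26 against 0.728, 2.68 and 0.624 CPM (adjusted p = 3.56e-05 with the block) and Krt19 at 5.11, 6.86 and 12.3 against 1.4, 2.28 and 3.05 CPM (adjusted p = 0.000772). These are low levels, and Wt1 was at 16.5, 32.3 and 7.97 against 2.97, 24 and 1.8 CPM (adjusted p = 0.0563). The members of this list without C3 and Clu, which fibroblasts also express, summed to 999.6 to 1101 CPM in the positive and 881 to 990.4 CPM in the negative libraries, with Sulf1 the most abundant. The part of mural and epicardial cells in the differences of the other lists was not tested.

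Markers of blood and endothelial cells were the last examined. Of 18 macrophage markers 0 were called in either direction, with the block (0 higher and 3 lower at an unadjusted p under 0.05, 0 and 0 with DESeq2) or without it (0 higher and 1 lower at an unadjusted p under 0.05). Over all genes, 1100 were higher and 1281 lower at that unadjusted p with the block, and 499 and 594 without it. Fitted differences of the macrophage markers without the block were below 0 for 16 of the 18, with a median of -0.38 log2, and 10 were lower and 0 higher in all 3 pairs. The sums of these markers were 64.0, 57.5 and 53.3 CPM in the positive and 96.9, 69.7 and 55.2 CPM in the negative libraries, lower in the positive library of each pair. The part of macrophages in the differences of the other lists was not tested. C1qb and C1qc were at most 8.65 and 6.92 CPM. Endothelial markers summed to 522 to 671 against 555 to 640 CPM, mostly from Eng, which fibroblasts also express. With the block 1 of their 18 members was higher (Tek, 0.65 ± 0.11, adjusted p = 0.00164) and 1 lower (Erg, -1.39 ± 0.19, adjusted p = 0.000299). Of 6 Schwann cell markers tested 1 was higher (Cdh19, 0.55 ± 0.15, adjusted p = 0.0354), and this list summed to 300.5 to 341 against 254 to 316 CPM, with Prnp the most abundant. Cardiomyocyte markers summed to 50.5 CPM in the positive library of the pair 63 and to between 18.1 and 19.7 CPM in the other 5 libraries. Lymphoid markers summed to at most 1.22 CPM, and the globin genes Hba-a1, Hba-a2, Hbb-bs, Hbb-bt, Hbb-b1 and Hbb-b2 were at 0 in all 6 libraries.

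**Figure D3:**
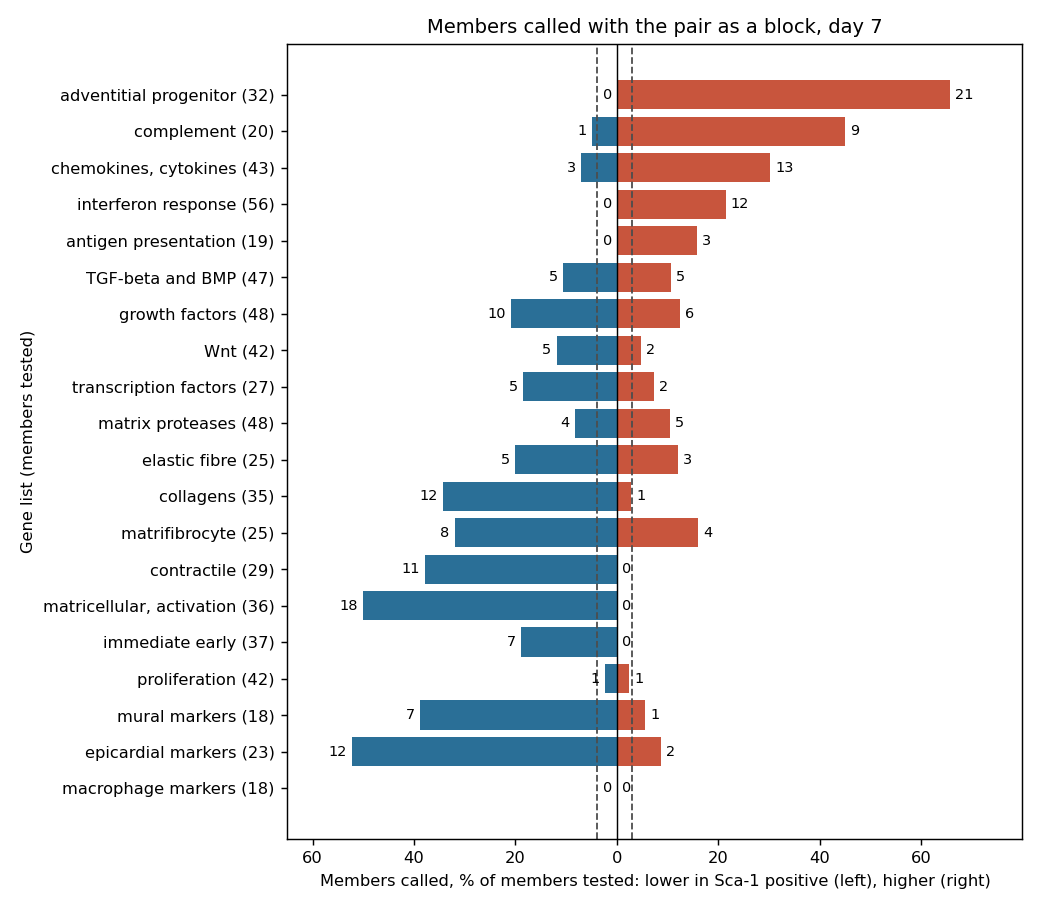
Share of the members tested in 20 gene lists that were called with the pair as a block, lower in the Sca-1 positive gate to the left and higher to the right, with the number of members called at each bar and the number tested in parentheses. Dashed lines mark the share over all genes, 3.92% lower and 2.95% higher. Adventitial progenitor genes reach the furthest to the right, with 21 of 32, and epicardial markers the furthest to the left, with 12 of 23.

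The gate difference at day 7 was then set beside that of the other times, from 5 positive and 4 negative undamaged libraries, 2 and 2 at day 14, and 4 and 3 at day 28, with no library in more than one comparison. The times differed in sex-linked RNA. Xist was at most 0.434 CPM in undamaged libraries. In the day 14 pair D9 it was at 295 CPM in the positive and 815 CPM in the negative library, with Ddx3y at most 0.0767 CPM. The day 28 positive library E2 had 55.8% of reads in no gene. The part of sex or of this library in changes between times was not tested. Of the 27 genes called higher without the block, 27 were above 0 in undamaged hearts, at day 14 and at day 28, where 53.2%, 48.4% and 49.6% of all genes were, and 20, 1 and 13 of them were called there. Of the 13 called lower without the block, 9 were below 0 in undamaged hearts, 12 at day 14 and 13 at day 28, beside 46.7%, 51.6% and 50.4% of all genes, and 4, 0 and 0 were called there. Of the 369 called higher with the block, 321 (87.0%) were above 0 in undamaged hearts, 351 (95.1%) at day 14 and 306 (82.9%) at day 28, and 108, 3 and 51 were called there. Of the 490 called lower with the block, 345 (70.4%) were below 0 in undamaged hearts, 470 (95.9%) at day 14 and 368 (75.1%) at day 28, and 65, 0 and 13 were called there. Their median difference was -0.79 log2 at day 7 and -0.36 in undamaged hearts. For the 369 called higher the medians were 0.70 and 0.56. Both sets were selected by their day 7 values, which tends to enlarge the day 7 medians, and the day 7 values come from a separate fit. These medians therefore cannot show whether the gate difference was larger at day 7.

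A test of the change in the gate difference itself, over all 26 libraries and 14052 genes and without the pairs as a block, called 1 gene between day 7 and undamaged hearts (0.00712%), with 814 at an unadjusted p under 0.05. That gene was Mfap5 (GRCm38 chromosome 6, 122505845 to 122529290), which belongs to the microfibrils that scaffold elastic fibres. In undamaged hearts it was at 861 to 1203 CPM in the 5 positive and 327 to 367 CPM in the 4 negative libraries, a gate difference of 1.56 ± 0.16 log2. At day 7 the negative libraries held 985 to 1559 CPM, above each undamaged negative library, and the positive ones 1222 to 1411 CPM. At day 14 the gates were at 1593 to 1838 against 1184 to 1199 CPM, and at day 28, at 1194 to 1319 against 641 to 968 CPM, in the order positive and negative. The gate difference at day 7 was not called as different from that at day 14 (-0.56 log2, adjusted p = 0.999994) or day 28 (-0.72 log2, adjusted p = 0.999951). The change in the gate difference from undamaged hearts to day 7 was -1.59 ± 0.25 log2 (edgeR adjusted p = 0.0147). It was not called without the positive library of the pair 63 (adjusted p = 0.108) or 66 (0.0712) or the negative library of the pair 63 (0.0785) or PDGFRa (0.126). Nor was it called among the libraries with a prefixed code, mostly R60, alone (-1.40 log2, adjusted p = 0.153). DESeq2 gave -1.57 (2.74e-08). Pamr1 (-2.07 ± 0.37, adjusted p = 0.052), a secreted protease-like protein, and Islr2 (-2.50 ± 0.46, adjusted p = 0.0524) came next and missed the threshold. In undamaged hearts both had a difference above 0 (1.63 ± 0.24 and 3.14 ± 0.32 log2). The undamaged and day 28 groups mix libraries with a prefixed code and libraries coded by letter and number alone, and day 7 holds none of the latter. Ly6a in undamaged positive libraries was at 279 and 318 CPM in those with a prefix and 727 to 1290 CPM in the others.

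That test left the pairs aside, and a fit with the pairs as a block was added after the data were seen. The pairs at the other times rest on a sample code shared by both libraries, such as F3 or A6. Those at day 7 rest on the number 63 or 66, before endings that differ, or on PDGFRa, the name of the reporter gene. The 6 libraries without a partner were left out, so that 20 libraries and 13900 genes were tested. Within the 3 undamaged pairs the deviations from the gate mean correlated at 0.10 to 0.362, beside 0.152 to 0.367 in the day 7 pairs over the same genes. The lowest undamaged value, of the pair A6, was at the threshold of 0.1 used to accept pairs. The blocked fit called 64 genes with a gate difference higher at day 7 than in undamaged hearts (0.460%) and 81 with a lower one (0.583%), with 1527 at an unadjusted p under 0.05. The same 20 libraries without the block gave 0 and 0. The blocked counts were 12 and 19 without the day 7 pair PDGFRa, 29 and 32 without the pair 63, 20 and 25 without the pair 66, and 51 and 152 without the undamaged pair F3. Mfap5 was again called (-1.40 log2, adjusted p = 0.00412), also without any 1 of the 6 pairs (adjusted p from 0.00907 to 0.0309).

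Among the genes with the smallest p in that fit, the 5 named next had a lower difference at day 7, and each was called without any 1 of the 6 pairs. Cd248, of the adventitial list, changed by -2.10 log2 (adjusted p = 0.00158 with the block, 0.237 without it). Its gate difference was 3.17 ± 0.31 log2 in undamaged hearts (all 26 libraries, no block). At day 7 it was 1.25 ± 0.13 (6 libraries, with the block), so that it stayed above 0. These 2 values come from other fits than the change and do not subtract to it. Aspn, a small leucine-rich proteoglycan that binds collagen, changed by -1.67 (adjusted p = 0.00158). Its gate differences in those other 2 fits were 1.09 ± 0.26 in undamaged hearts and -0.42 ± 0.12 at day 7. Rcan1, an inhibitor of the phosphatase calcineurin, changed by -2.29 (adjusted p = 7.69e-05), and its day 7 levels were 58.1, 156 and 75.4 CPM in the positive and 79.1, 178 and 78.9 CPM in the negative libraries. Atp6v0a4, a proton pump subunit, changed by -2.86 (adjusted p = 0.00158) and Fam101b, an actin regulator, by -1.87 (adjusted p = 0.00158). Other members of the adventitial list called with a lower difference were Thy1 (-1.48, adjusted p = 0.0035), Efhd1 (-2.03, 0.0214), Sema3c (-1.24, 0.0214) and Uchl1 (-1.43, 0.027). Their differences stayed above 0 at day 7, and no member of that list was called with a higher one. They were picked after values were seen. The fit also called 64 genes with a higher difference at day 7. Those with the smallest p were Mmp3 (1.87 log2, adjusted p = 0.00158), Tmem176b (1.54, adjusted p = 0.00263) and Col6a6 (1.63, adjusted p = 0.00263). Il33 (1.07, adjusted p = 0.0056), C4b (1.05, adjusted p = 0.0127) and C3 (1.04, adjusted p = 0.0498), picked after values were seen, were in that set. The calls of these genes without single pairs are not reported here. Pamr1 (-1.71, adjusted p = 0.0214) and Islr2 (-2.63, adjusted p = 0.0270) were called with the block. Pamr1 was not called without any of the 3 day 7 pairs (adjusted p from 0.0580 to 0.137), and Islr2 was not called without the day 7 pair PDGFRa or 63 or the undamaged pair A6 (adjusted p from 0.0769 to 0.162). Against day 28 the blocked fit called 2 genes with a higher (0.0144%) and 6 with a lower difference (0.0432%), and against day 14 0 in either direction (153 at an unadjusted p under 0.05).

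Mest was highest in the negative gate of day 7. The 3 negative libraries at day 7 held 99.99 to 114 CPM, and no library of another group exceeded 43.3 CPM. Undamaged hearts were at 5.26 to 10.1 CPM in the positive and 3.56 to 19.6 CPM in the negative gate, and the positive libraries of day 7 at 14.8 to 23.9 CPM. At day 14 the gates were at 15.8 to 43.3 and 24.4 to 24.8 CPM and at day 28 at 10.1 to 17.1 and 11.4 to 19 CPM, in the order positive and negative. Despite these levels, the change in the gate difference between undamaged hearts and day 7 (-2.08 ± 0.53 log2) was not called in edgeR without the block (adjusted p = 0.368), and DESeq2 gave an adjusted p of 0.0448. With the block it was called (-2.57 log2, adjusted p = 0.0251), but not without any of the 3 day 7 pairs (adjusted p from 0.0617 to 0.137). Fn1 changed sign in its fitted gate difference, from 2.38 ± 0.44 log2 in undamaged hearts to -0.75 ± 0.36 at day 7, and this change was not called (-3.13 ± 0.67, adjusted p = 0.189, and 0.0844 with the block). Against day 28, edgeR without the block called 0 genes (603 at an unadjusted p under 0.05) and DESeq2 1. Against day 14 it called 0 (43 at an unadjusted p under 0.05) and DESeq2 1, with only 2 libraries of each gate there. The smallest p against day 28 belonged to Kcne4, a potassium channel subunit (1.53 ± 0.34, adjusted p = 1), followed by Mest (-2.31 ± 0.56), Ksr1 (1.08 ± 0.27) and Figf (1.63 ± 0.41), and against day 14 to Mest (-2.76 ± 0.63, adjusted p = 1).

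**Figure D4:**
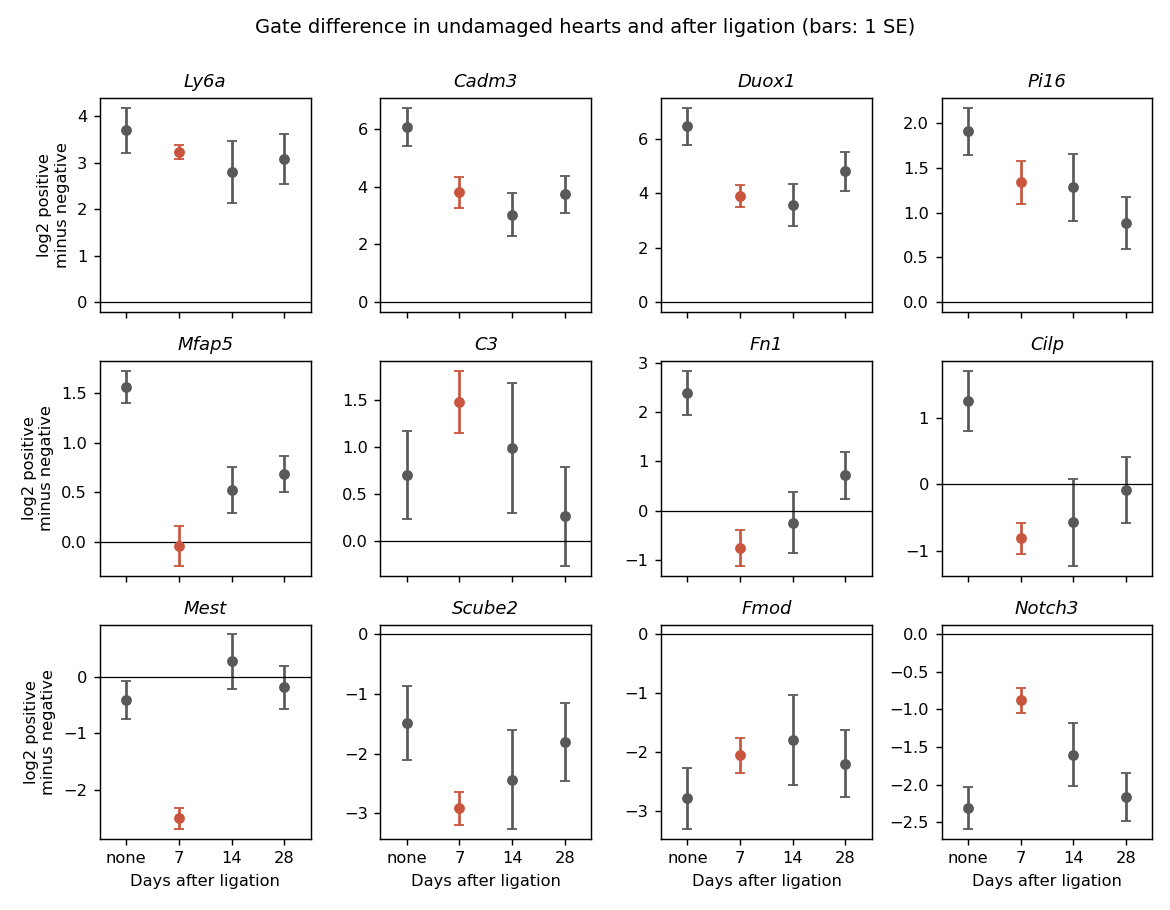
Log2 difference between Sca-1 positive and negative cells for 12 genes in undamaged hearts (none) and on days 7, 14 and 28, each with 1 standard error, with day 7 in colour. The day 7 value is from the 6 day 7 libraries and the others are from the fit over all 26 libraries. Mfap5 is near 0 at day 7 and above 0 at the other times, and Mest is at -2.50 at day 7 and between -0.41 and 0.27 at the others.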

How the data were processed

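RNA had been taken with RNeasy plus micro columns and sequenced paired end on a NextSeq 500 from TruSeq Stranded mRNA libraries, per the labels' protocols. The deposited values are raw read counts per gene symbol, made by the authors. The submitters' processing notes name bcl2fastq, TopHat, Bowtie2, STAR, Cufflinks and mm10 without roles, and the counting program, its strand setting and the annotation are not given in the sources used here. Reads in no gene were 6.42 to 11.1% and ambiguous reads 0.300 to 0.370% of the day 7 files and were left out. Of 24421 symbols, 23334 were found once in GENCODE M21 (GRCm38), from which gene IDs and coordinates came. 0 columns of the files were of no sample.

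The gate was tested with edgeR 4.0.16 (quasi-likelihood, TMM, filterByExpr, R 4.3.3) on the 6 day 7 libraries, and its change over time on all 26 with a term for each of 8 groups, and on the 20 paired libraries with a block. In the paired check, the deviations of libraries from their gate mean correlated at 0.391 to 0.464 within a pair and at -0.265 to -0.168 between pairs. Deviations from a gate mean sum to 0, so the between-pair values are tied to the within-pair ones and are not separate evidence. The pairing, which rests on the shared code of the libraries, was accepted, and the fit with the pair as a block is printed where it changes a call. DESeq2 1.42.0, voom of limma 3.58.1, other scalings and filters, and fits without a library or pair were alternatives. The tests were tested on simulated data.

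Members and gene lists were chosen with earlier results of these data known. Named were 32 anchor genes, for each direction at most 12 genes, those called with the greatest differences (mean log2 CPM of at least 3, gates not overlapping, all pairs in one direction), up to 4 genes per list with the smallest p, and for changes over time up to 6 genes called or 4 with the smallest p. Other genes, such as Ackr1, Runx1, Spp1, Wnt9a or Gata6 and the members that complete a short count, and the motifs were chosen after values were seen. Some genes that the rule names are not reported here.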

Additional observations from a re-analysis of the deposited data

Results flagged for a closer look

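The gate difference of Mfap5 differed between day 7 and undamaged hearts in a test of the difference itself. The gate by time term of edgeR was -1.59 ± 0.25 log2 (adjusted p = 0.0147), with 3 libraries of each gate at day 7 and 5 positive and 4 negative libraries of undamaged hearts. The negative gate held 327 to 367 CPM in undamaged hearts and 985 to 1559 CPM at day 7, and the positive gate 861 to 1203 and 1222 to 1411 CPM. The call was lost without any 1 of 4 of the 6 day 7 libraries (adjusted p from 0.0712 to 0.126) and among the libraries with a prefixed code (0.153). With the pairs as a block, over 20 libraries, it was -1.40 (adjusted p = 0.00412).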

How the results depend on the processing

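With the replicate block, which rests on the pairs of libraries, edgeR called 369 genes higher and 490 lower in place of 27 and 13, which lowered the share higher from 67.5% to 43.0%. DESeq2 called 124 and 151, and with the block 348 and 462, limma-voom called 24 and 8, and edgeR without a filter on low counts 47 and 37 and over all 26 libraries 27 and 4. Added after the data were seen, the block gave 358 and 499 with RLE factors, 380 and 445 with library totals, 341 and 515 with upper-quartile factors and 504 and 600 without the filter. Fits without a library or a pair gave 5 to 404 genes higher and 3 to 527 lower, the upper ends being fits with the block. Without the block the count fell to 12 and 4 without the positive PDGFRa library, 17 and 8 without the positive and 16 and 6 without the negative library of the pair 66, 11 and 3 without the PDGFRa pair and 5 and 3 without the pair 63. Mfap5 at day 7 ranged from -0.20 to 0.10 log2 without a library or pair and was at 0.0013 with the block and library totals. Other uncalled differences that changed sign without a library or pair ranged from -0.78 to 0.89 (Ccl2), -0.41 to 1.16 (Il6), -0.079 to 0.22 (Col3a1), -0.63 to 0.0049 (Postn) and -0.52 to 0.19 (Hic1), and those of Lif, called only with the block, from -1.21 to 0.25. The change from undamaged hearts had 0 to 3 genes lower without a day 7 library and 5 higher and 23 lower with DESeq2. It had 3 lower with RLE factors, 3 without the filter and 9 among libraries with a prefixed code. With the replicate block added after the data were seen it had 64 higher and 81 lower, 12 to 54 and 19 to 152 without a pair, and 0 lower over the same libraries with no block. Against day 28 the block gave 2 higher and 6 lower. DESeq2 called 1 gene lower against day 28 and 1 higher against day 14. The cause of these changes was not tested. 3 counts set the floor of a library at 0.157 to 0.275 CPM.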

Other observations

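Several genes outside the lists were also called with the pairs as a block, and all of these were picked after their values were seen. Ret, the signalling kinase for ligands of the glial cell line-derived neurotrophic factor family, was at 119, 115 and 50.6 CPM in the positive and 40.5, 37.2 and 9.55 CPM in the negative libraries of the pairs 63, 66 and PDGFRa (1.82 ± 0.15 log2, adjusted p = 2.09e-06). Its co-receptor Gfra2 was higher too (0.97 ± 0.17, adjusted p = 0.00174), while Gfra1 missed the threshold (0.37 ± 0.13, adjusted p = 0.109) and Gfra3 was at 0 in all 6 libraries. Of the Lgi family, secreted proteins that bind neuronal and glial receptors, Lgi2 (0.92 ± 0.16, adjusted p = 0.00175), Lgi3 (1.68 ± 0.26, adjusted p = 0.000683) and Lgi4 (1.35 ± 0.15, adjusted p = 2.26e-05) were higher. Of 3 other genes called higher, the matrix protein gene Dpt was at 2281, 2487 and 2202 against 1332, 1445 and 1329 CPM (adjusted p = 0.000867), the collagen receptor gene Ddr2 at 562, 556 and 382 against 286, 317 and 246 CPM (adjusted p = 0.000299) and the ferritin receptor gene Scara5 at 335, 445 and 271 against 126, 124 and 51.1 CPM (adjusted p = 3.35e-06).

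Beside Dusp6 and Dusp5, given above, the phosphatase gene Dusp4 was at 13.1, 13.4 and 6.09 CPM in the negative and 5.77, 4.76 and 3.26 CPM in the positive libraries (-1.21 ± 0.23, adjusted p = 0.00337). Etv4, a transcription factor downstream of growth factor receptors, was at 30.3, 7.81 and 11.1 against 7.34, 1.94 and 3.95 CPM (adjusted p = 3.68e-05), and Spry4 differed by -0.52 ± 0.12 (adjusted p = 0.0137). Of their relatives, Spry1 (-0.27 ± 0.11, adjusted p = 0.182), Spry2 (0.20 ± 0.12, adjusted p = 0.369) and Etv5 (-0.21 ± 0.17, adjusted p = 0.539) were not called. Scube1 went the way of its relative Scube2 (-1.77 ± 0.23, adjusted p = 0.00013), and the laminin gene Lama5 was lower as well (-1.43 ± 0.26, adjusted p = 0.00263).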
